A study of Mus musculus with 30 samples.

Results

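The mitochondrial ribosomal protein genes are the nuclear genes for the protein parts of the ribosome inside mitochondria. They were followed here in the quadriceps muscle of male mice on a low fat (LF) or a high fat (HF) diet. Members were all array entries whose mouse symbol, read from the Entrez gene number of the entry, begins with Mrpl (large subunit) or Mrps (small subunit) and a number. This gave 73 of the 16475 entries tested, 48 of the large subunit and 25 of the small subunit. 2 of the large subunit symbols, Mrpl23-ps1 and Mrpl27-ps, are those of pseudogenes. No measured value entered this rule, but the gene family was chosen with earlier results of these data known.

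There were 30 arrays, 1 mouse per array, in 3 groups of 10 mice of the strain that the labels spell C56BL/6J and the series text C57BL/6J. All mice had the same growth diet and then a low fat run-in of 3 weeks. LF day 0 mice were killed at the end of the run-in, at 12 weeks of age. LF day 56 mice stayed on the low fat diet for 56 days and HF day 56 mice received the high fat diet for 56 days, and both were killed at 20 weeks. The labels name no transgene and no deletion. The series text names obesity and insulin resistance as the state that the high fat diet was to bring about, and muscle RNA as the readout.

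The mitochondrial ribosome makes the few proteins encoded by mitochondrial DNA, all of them core subunits of the respiratory chain and the ATP synthase. Its RNAs come from mitochondrial DNA, whereas every protein of it is encoded in the nucleus, made in the cytosol and imported. The small subunit reads the messenger RNA, and the large subunit joins the amino acids and feeds the new chain towards the inner membrane. Muscle needs this ribosome for its oxidative capacity, and defects in several of its proteins cause inherited cardiomyopathy or encephalomyopathy. Some proteins have a counterpart in bacteria, such as those of Mrpl3, Mrpl12, Mrps6 and Mrps11, and others are found only in mitochondria, such as those of Mrpl42, Mrpl46, Mrps22, Mrps26 and Mrps27. The proteins of Mrps18a and Mrps30 are known to sit in the large subunit in spite of their names; they are counted here by symbol.

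RefSeq promoter sequences of the mouse build GRCm38.p6, 250 bases before the start of each gene, could be matched by gene to 63 members, 41 of the large and 22 of the small subunit. Many members start close to a gene on the opposite strand. For 21 of the 63 (33.3%) the opposite start lay within 250 bases, against 11.4% of the genes on the array and 8.73% of all 27025 genes with a promoter. Mrpl46 and Mrps11, a member of each subunit, start 41 bases apart in opposite directions. The interval of Mrps27, the member with the largest difference of the small subunit over time, is shared with Ptcd2, which codes for a mitochondrial RNA-binding protein, and spans 107 bases. These intervals and 3 promoters are shown because the results below turn on their genes. Mrps6 was the member of smallest p among those higher on the high fat diet, Mrps22 was among the 3 small subunit members of smallest p on the lower side in 2 comparisons, and Mrpl39 holds the full nuclear respiratory factor 1 (NRF1) motif. Capitals mark the NRF1 motif, which is the half-site GCGCA followed at once by its reverse complement, and CCGGAAG, in either direction, for ETS factors such as GABP, both known as regulators of nuclear genes for mitochondrial proteins.
Mrpl46 and Mrps11, between the starts, chr7:78783090-78783130, plus strand: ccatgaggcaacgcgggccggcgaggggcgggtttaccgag
Mrps27 and Ptcd2, between the starts, chr13:99344679-99344785, plus strand: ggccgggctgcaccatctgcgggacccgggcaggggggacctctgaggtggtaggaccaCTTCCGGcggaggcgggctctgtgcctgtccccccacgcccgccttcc
Mrps22, before the start, chr9:98601680-98601929, minus strand: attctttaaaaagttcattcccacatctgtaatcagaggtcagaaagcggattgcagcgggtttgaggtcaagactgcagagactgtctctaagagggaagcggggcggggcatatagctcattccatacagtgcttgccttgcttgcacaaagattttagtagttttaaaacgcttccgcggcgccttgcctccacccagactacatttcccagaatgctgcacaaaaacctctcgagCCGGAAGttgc
Mrps6, before the start, chr16:92058086-92058335, plus strand: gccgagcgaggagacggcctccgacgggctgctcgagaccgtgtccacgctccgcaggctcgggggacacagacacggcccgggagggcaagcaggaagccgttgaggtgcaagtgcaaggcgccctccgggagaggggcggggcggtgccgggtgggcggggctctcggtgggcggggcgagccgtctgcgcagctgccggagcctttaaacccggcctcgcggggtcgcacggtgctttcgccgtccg
Mrpl39, before the start, chr16:84735245-84735494, minus strand: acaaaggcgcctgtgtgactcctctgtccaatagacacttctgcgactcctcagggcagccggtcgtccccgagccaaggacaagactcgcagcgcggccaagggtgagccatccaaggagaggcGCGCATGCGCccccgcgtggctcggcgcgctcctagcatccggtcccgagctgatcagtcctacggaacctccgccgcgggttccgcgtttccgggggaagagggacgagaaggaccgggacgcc

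Both strands of each promoter were searched. CCGGAAG stood in 11 of 41 large subunit promoters (26.8%) and 6 of 22 small subunit promoters (27.3%), against 12.1% of the genes on the array and 7.83% of all promoters. The NRF1 motif stood in 3 large subunit promoters (Mrpl9, Mrpl32 and Mrpl39) and in 0 of the small subunit, against 1.48% of the genes on the array and 0.877% of all. With the base after GCGCA left free, a form that includes every match of the stricter one, the counts were 9 of 41 (22%) and 1 of 22 (Mrps21), against 7.14% and 4.23%. AANATGGCG, the motif of YY1, stood in 1 promoter of each subunit (Mrpl36 and Mrps11), against 1.84% and 1.29%. These are matches of letters in a fixed window, with no measurement of binding.

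The deposited values are linear array intensities, and all levels and differences below are on the log2 scale of them. Of the 73 members, 70 lay above an intensity of 20 on all 30 arrays, Mrps5 did so on 11 arrays, and Mrpl41 (3.4 to 5.8) and Mrps25 (11.0 to 14.8) on none, so these last 2 were near background. Members of the large subunit above 20 throughout ranged from 21.4 to 4237.3 and those of the small subunit from 60.0 to 1638.5. Levels of different entries were not ranked, since each rests on probes of its own. The spread between mice was narrow beside that of other entries, which were not matched to the members for signal level. An entry that exceeded 20 on 5 or more arrays is called detected here, which holds for 6844 of all entries and 71 members. The SD within groups had a median of 0.125 over the 71 detected members, and 65 of them lay below 0.191, the median over the 6773 other detected entries. It was narrowest for Mrpl1 (0.060), and in the small subunit it was widest for Mrps5 (0.26), Mrps27 (0.22) and Mrps35 (0.18). In the large subunit it was widest for Mrpl14 (0.27), Mrpl50 (0.22) and Mrpl23-ps1 (0.20).

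All 11 markers of skeletal muscle fibres were measured, and none fell below an intensity of 5861.4 on any array. The arrays formed 2 sets by the 5′ to 3′ signal of the spike-in control RNAs dap and thr, 9 arrays with a higher signal and 21 with a lower one, with 3 and 7 arrays of each group. S100a8, a neutrophil gene, exceeded an intensity of 100 on 17 arrays, with 7 at LF day 0, 4 at LF day 56 and 6 at HF day 56. This left 3, 6 and 4 arrays at or below 100, so values given below for these arrays rest on few mice. Summed markers of neutrophils and their precursors (10 measured) ranged from 50.6 to 10354.1 in LF day 0, from 50.3 to 2636.7 in LF day 56 and from 47.9 to 13555.9 in HF day 56. Summed slow fibre markers (8 measured) ranged from 387.6 to 5865.6, from 367.8 to 7982.5 and from 272.5 to 5636.6.

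The mean log2 intensity of each subunit was nearly the same in the 3 groups. For the large subunit the arrays ran from 8.53 through a median of 8.57 to 8.65 in LF day 0, from 8.50 through 8.56 to 8.65 in LF day 56, and from 8.47 through 8.52 to 8.63 in HF day 56. The group means were 8.58 ± 0.038, 8.56 ± 0.050 and 8.53 ± 0.054 (SD, n = 10). For the small subunit the arrays ran from 8.14 through 8.19 to 8.26 in LF day 0, from 8.05 through 8.16 to 8.22 in LF day 56, and from 8.08 through 8.12 to 8.22 in HF day 56, with means of 8.19 ± 0.042, 8.16 ± 0.049 and 8.13 ± 0.041. The 3 groups overlapped in both subunits. The means of HF day 56 and LF day 0 lay farthest apart, with a difference of -0.042 for the large and -0.067 for the small subunit. On the high fat diet 7 of 10 arrays lay below the LF day 56 mean of the large subunit and 9 of 10 below that of the small subunit. Because the members were chosen with earlier results known, no p is given for these means.

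**Figure D1:**
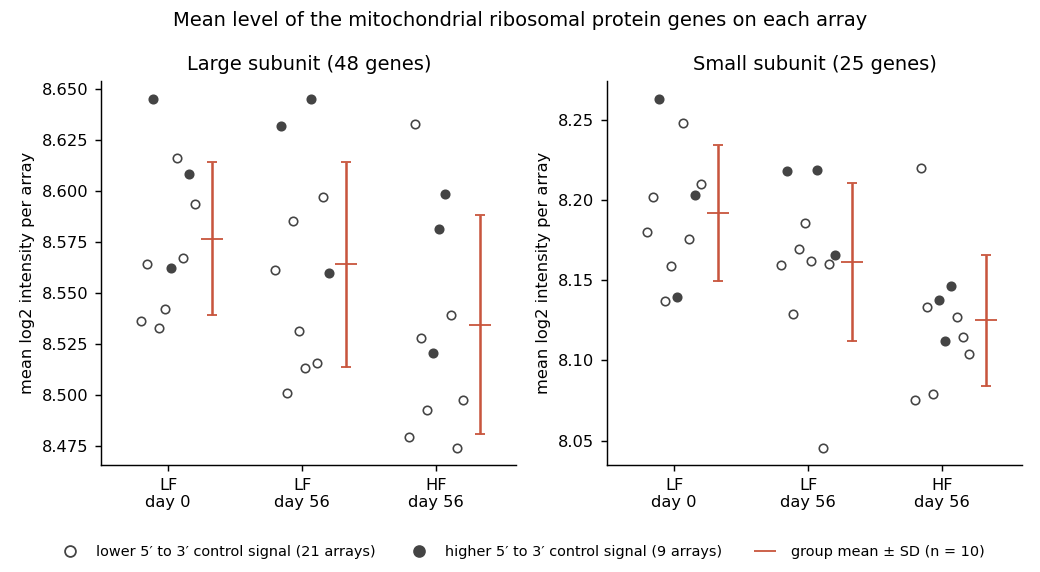
Mean log2 intensity of the 48 large subunit members (left) and the 25 small subunit members (right) on each of 30 arrays, by group, with filled points for the 9 arrays of higher 5′ to 3′ control signal, open points for the other 21, and bars for the group mean ± SD (n = 10). The groups overlap in both panels, and the axes span less than 0.25 on the log2 scale.

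HF day 56 was set against LF day 56 to show the effect of the fat content at the same age. 0 of the 73 members passed the threshold (limma, Benjamini-Hochberg adjusted p below 0.05 over all 16475 entries), against 0.0243% of all entries, which is 4 entries, so a count of 0 is near the background. Small differences leaned to lower values on the high fat diet. The median difference was -0.031 for the large and -0.043 for the small subunit, beside 0.0029 over all entries and -0.010 over the 6844 detected entries. Means were lower on the high fat diet for 40 of 48 large and 20 of 25 small subunit members, 82.2% of the 73, beside 48.5% of all entries and 55.0% of the detected ones. The 13 members with a higher mean were Mrpl3, Mrpl10, Mrpl14, Mrpl28, Mrpl30, Mrpl41, Mrpl52, Mrpl53, Mrps6, Mrps11, Mrps12, Mrps31 and Mrps34.

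The precision of the array signal was taken member by member. It says little about the transcripts of Mrpl41 and Mrps25, which were near background. For all 73 members the 95% confidence interval of the difference lay inside a 1.5-fold change either way, and for 71 it lay inside a 1.25-fold change. The others were Mrps5, near background, with an interval from -0.43 to 0.019, and Mrpl14, with one from -0.11 to 0.36. At an unadjusted p below 0.05 there were 2 members (2.74%), against 5.1% of all entries and 5.03% of the detected ones. The groups overlapped for every member, and 0.0121% of all entries did not overlap between these groups.

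**Figure D2:**
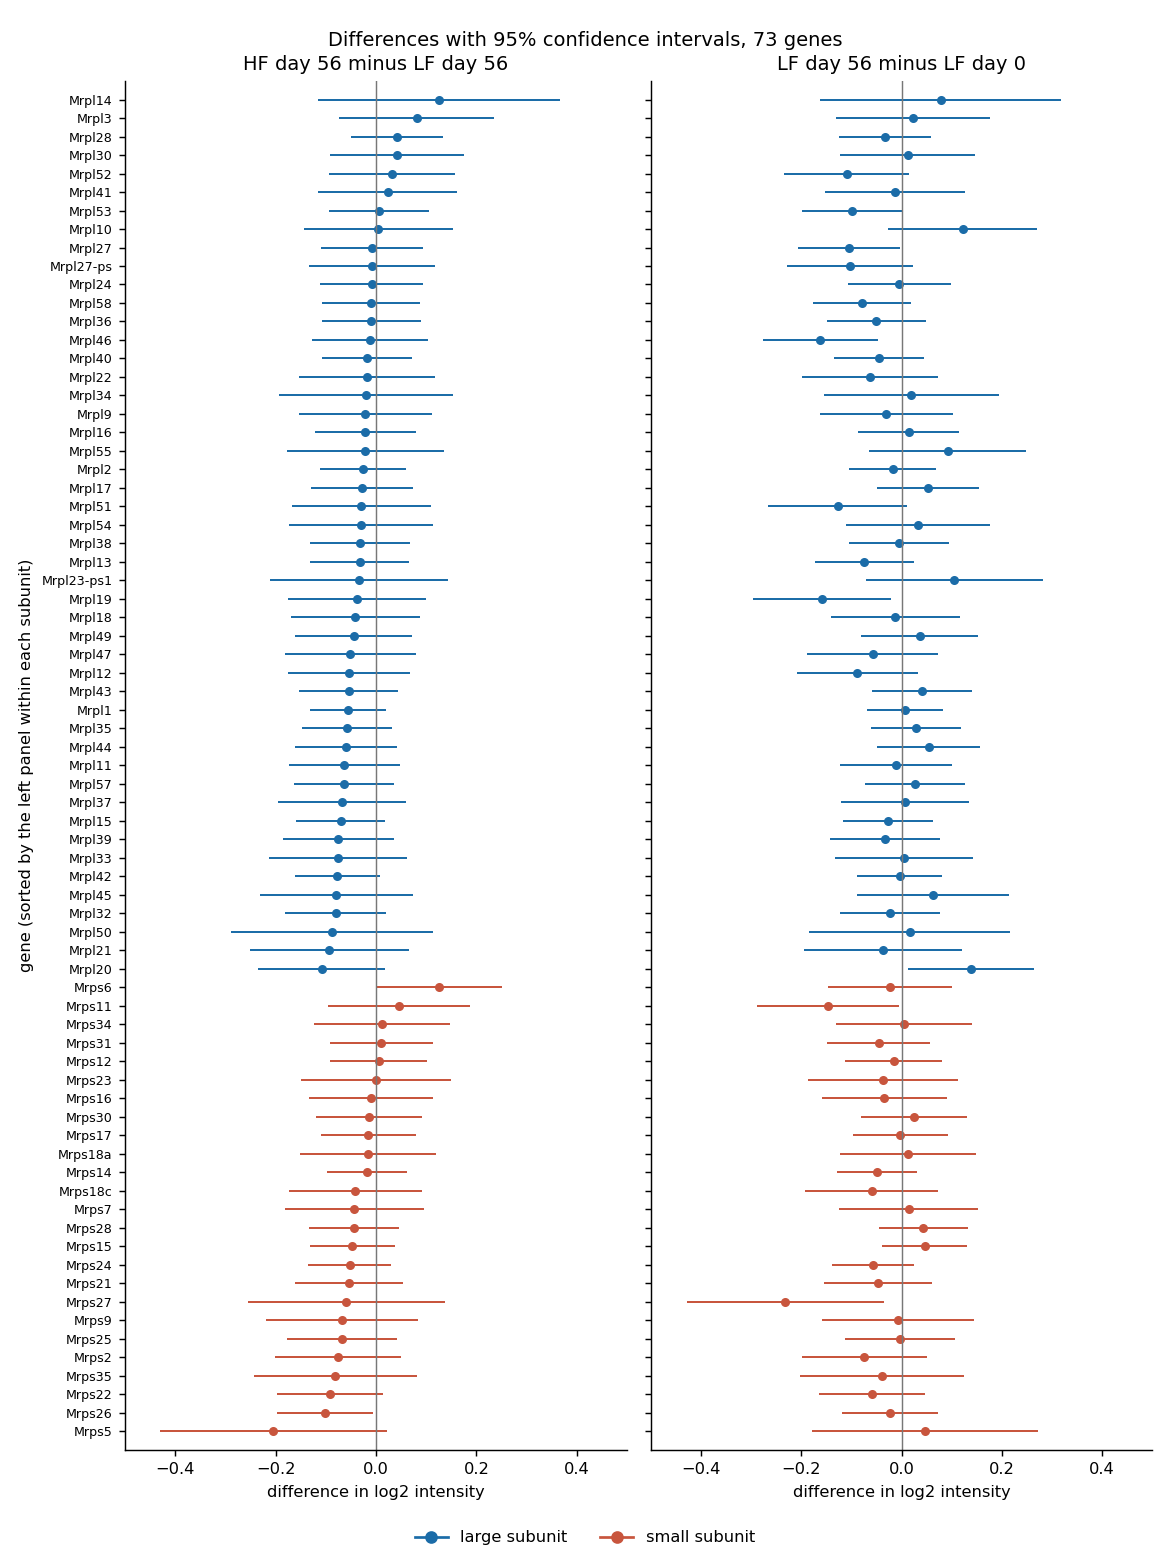
Difference in log2 intensity with its 95% confidence interval for each of the 73 members, HF day 56 minus LF day 56 (left) and LF day 56 minus LF day 0 (right), large subunit in blue and small subunit in red. On the left 60 points lie below 0, and no member passes the adjusted threshold in either panel.

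In the small subunit, Mrps26 and Mrps6 had the smallest p in the diet comparison. Mrps26, a protein found only in mitochondrial ribosomes, ran from 8.69 through 8.78 to 8.91 in LF day 0, from 8.61 through 8.75 to 8.84 in LF day 56 and from 8.53 through 8.61 to 8.83 in HF day 56. The lowest arrays were of the high fat group, whose highest array still lay among those of the low fat groups. The difference between the diets was -0.10 ± 0.046 (SE, n = 10 a group; adjusted p = 0.941), with 7 of 10 HF arrays below the LF mean, and -0.10 within each technical set.

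Mrps6, the counterpart of a bacterial small subunit protein, ran from 8.16 through 8.20 to 8.35 in LF day 0, from 7.93 through 8.20 to 8.41 in LF day 56 and from 8.13 through 8.31 to 8.59 in HF day 56. It was the small subunit member that differed most to the higher side, by 0.13 ± 0.060 (SE; adjusted p = 0.952), and 7 of its 10 HF arrays exceeded the LF day 56 mean. Among the arrays with S100a8 at or below 100 the difference was 0.014, and the part of neutrophil RNA in it was not tested.

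Mrps22, another protein without a bacterial counterpart, ran from 8.91 through 9.18 to 9.31 in LF day 56 and from 8.84 through 9.03 to 9.24 in HF day 56, after 9.11 through 9.18 to 9.27 in LF day 0. The HF arrays reached lower but overlapped the others, with a diet difference of -0.091 ± 0.051 (SE; -0.057 within the set of lower and -0.17 within that of higher control signal). Mrps5, a core protein of the small subunit, read from 4.03 through 4.28 to 4.82 in LF day 56 and from 3.72 through 4.10 to 4.50 in HF day 56, so that most of its values lay near background. Mrps11 (0.046 ± 0.068) and Mrps31 (0.011 ± 0.050) were the other small subunit members named on the higher side, both with differences below their standard errors.

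In the large subunit, Mrpl42 ran from 11.77 through 11.96 to 12.05 in LF day 0, from 11.85 through 11.93 to 12.03 in LF day 56 and from 11.74 through 11.87 to 11.99 in HF day 56. Its diet difference was -0.077 ± 0.041 (SE), and 9 of 10 HF arrays lay below the LF day 56 mean although the ranges overlapped. Mrpl20, which binds ribosomal RNA early in assembly of the bacterial large subunit, ran from 9.67 through 9.80 to 10.02, from 9.82 through 9.95 to 10.26 and from 9.64 through 9.82 to 10.19 in the same order of groups. The LF day 56 arrays reached highest, with overlap, and the diet difference was -0.11 ± 0.061 (-0.050 within the set of lower and -0.25 within that of higher control signal). Mrpl32, a protein that must be cut by the m-AAA protease before it joins the ribosome, differed by -0.081 ± 0.048.

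On the higher side in the large subunit were Mrpl14, Mrpl3 and Mrpl28. Mrpl14, at the face that meets the small subunit, ran from 7.60 through 7.98 to 8.12 in LF day 56 and from 7.47 through 8.02 to 8.65 in HF day 56, a wide overlap with a difference of 0.13 ± 0.12 (SE). This was 0.041 within the set of lower and 0.32 within that of higher control signal, and ranged from 0.058, without HF day 56 replicate 6, to 0.19 with 1 array left out. Mrpl3, mutated in a form of inherited cardiomyopathy, differed by 0.081 ± 0.075 and Mrpl28 by 0.042 ± 0.044. Among the arrays with S100a8 at or below 100 the signs of all these turned, to -0.070, -0.082 and -0.037. These values rest on 4 HF and 6 LF day 56 arrays, with an unadjusted p of 0.61, 0.48 and 0.56 (limma). The part of neutrophil RNA was not tested.

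LF day 56 against LF day 0 covers 56 days on the same low fat diet, in which age, time on the diet and day of killing cannot be told apart. 0 of the 73 members passed the threshold, against 0.85% of all entries (140 entries). The median difference was -0.0082 for the large and -0.023 for the small subunit, beside 0.00089 over all entries, and 27 of 48 large and 18 of 25 small subunit members had lower means, beside 49.6% of all entries. At an unadjusted p below 0.05 there were 7 members, or 9.59%, against 10.1% of all entries and 13.9% of the detected ones. Of these, 6 were lower, against 5.86% of all entries and 7.69% of the detected ones on that side. For all 73 the 95% confidence interval lay inside a 1.5-fold change and for 72 inside a 1.25-fold change, with Mrps27 reaching -0.43. The groups overlapped for every member, and 0.121% of all entries did not overlap.

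The members of smallest p over time included both genes of the divergent pair. Mrpl46, a large subunit protein particular to mitochondria, ran from 7.70 through 7.96 to 8.14 in LF day 0, from 7.58 through 7.76 to 8.01 in LF day 56 and from 7.60 through 7.80 to 7.87 in HF day 56. The day 0 arrays were the highest, with overlap, and the difference of LF day 56 from day 0 was -0.16 ± 0.056 (SE; adjusted p = 0.217). Mrps11, which starts 41 bases away on the other strand and whose protein sits on the platform of the small subunit, ran from 7.04 through 7.26 to 7.47, from 6.96 through 7.11 to 7.32 and from 6.93 through 7.14 to 7.55. Its difference was -0.15 ± 0.068 (adjusted p = 0.460), with 9 of 10 arrays below the day 0 mean. It was -0.17 and -0.086 within the technical sets and 0.011 among the arrays with S100a8 at or below 100, where Mrpl46 had -0.21. In the diet comparison the pair had differences of -0.012 (Mrpl46) and 0.046 (Mrps11).

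Mrps27, a small subunit protein of the pentatricopeptide repeat family, ran from 6.32 through 6.74 to 6.88 in LF day 0, from 5.99 through 6.47 to 6.76 in LF day 56 and from 6.02 through 6.38 to 6.81 in HF day 56. At day 0, 9 of 10 arrays lay close together and 1 lay far below them, and both later groups spread widely. The difference of LF day 56 was -0.23 ± 0.095 (SE; adjusted p = 0.373), -0.24 and -0.21 within the technical sets, and its neighbour Ptcd2 differed by -0.054. Mrpl19, a large subunit protein with a bacterial counterpart, ran from 6.72 through 6.88 to 6.99 at day 0 and from 6.49 through 6.69 to 7.04 in LF day 56, with a difference of -0.16 ± 0.066 (adjusted p = 0.386) and 9 of 10 arrays below the day 0 mean. Within the sets of lower and higher control signal it was -0.12 and -0.26.

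Mrpl20 was the member of smallest p on the higher side, at 0.14 ± 0.061 (SE; adjusted p = 0.415), with 9 of 10 LF day 56 arrays above the day 0 mean. Mrpl27, whose bacterial counterpart lies at the peptidyl transferase centre, differed by -0.11 ± 0.049, but its transcript and that of the pseudogene Mrpl27-ps (-0.10 ± 0.061) may be near-identical, so both values are uncertain. Mrpl10, at the base of the stalk that recruits translation factors, differed by 0.12 ± 0.072, and Mrpl23-ps1, a pseudogene symbol and likewise uncertain, by 0.10 ± 0.086. Within the sets these were 0.081 and 0.22 for Mrpl10 and 0.045 and 0.24 for Mrpl23-ps1, which had 0.32 among the arrays with S100a8 at or below 100. In the small subunit Mrps24 (-0.057 ± 0.039), Mrps15 (0.046 ± 0.041), Mrps28 (0.043 ± 0.043) and Mrps30 (0.024 ± 0.051) had small differences, and that of Mrps15 was -0.063 among the arrays with S100a8 at or below 100. The part of neutrophil RNA in these values was not tested.

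**Figure D3:**
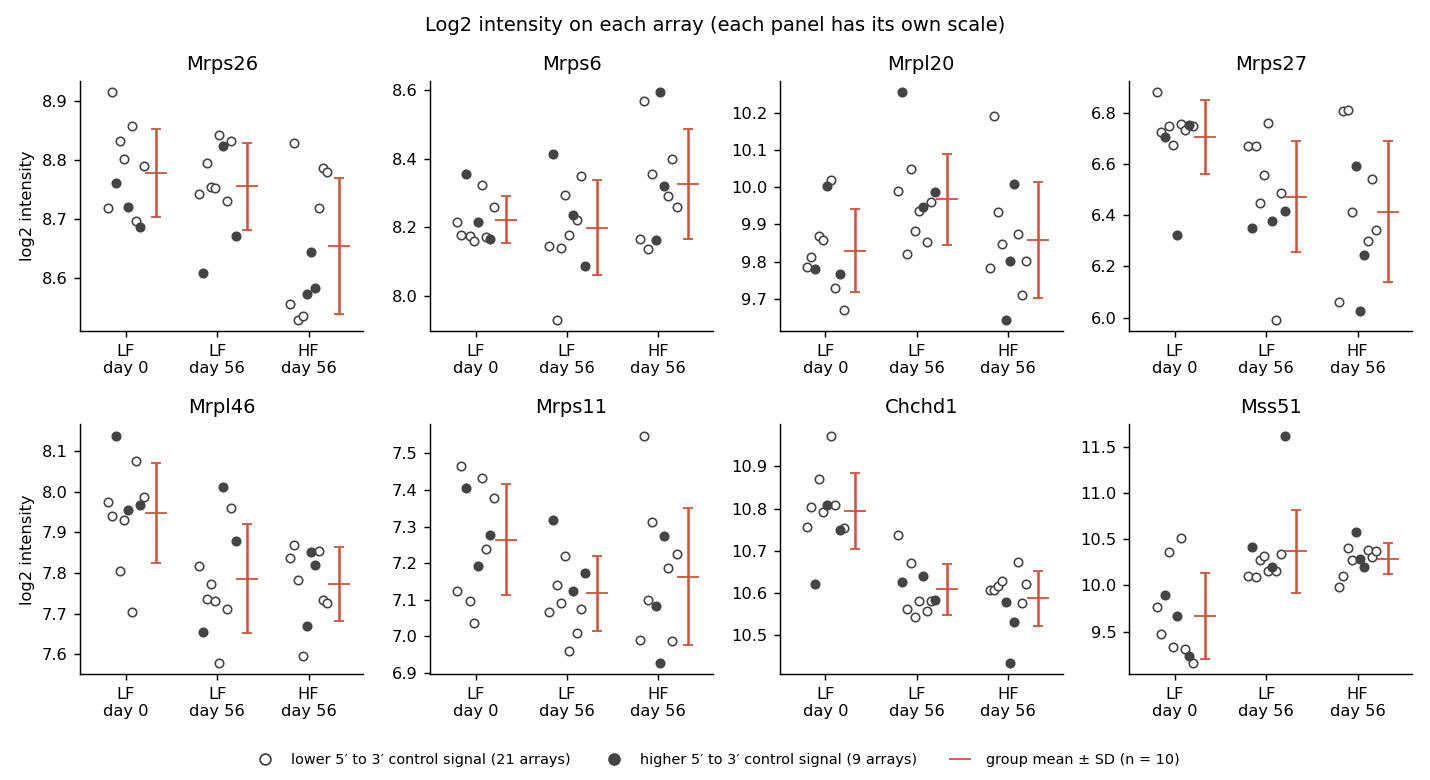
Log2 intensity of 6 members, of Chchd1 and of Mss51 on each array by group, with filled points for the 9 arrays of higher 5′ to 3′ control signal, open points for the other 21, and bars for the group mean ± SD (n = 10). The groups overlap in every panel, and only Chchd1 and Mss51 have differences from day 0 that pass the threshold.

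The HF day 56 mice were also set against LF day 0, a comparison that shares its day 0 arrays with the one before and in which diet and time cannot be told apart. 0 of the 73 members passed, against 1.59% of all entries (262 entries), and the smallest adjusted p was 0.132, for Mrpl46. Median differences were -0.052 for the large and -0.068 for the small subunit, beside 0.0024 over all entries, and 37 of 48 and 22 of 25 members had lower means, beside 48.9% of all entries. At an unadjusted p below 0.05 there were 13 members, all lower, 8 of the large and 5 of the small subunit, or 17.8%, against 11.0% of all entries in both directions and 5.71% on the lower side. Among the detected entries these shares were 15.9% and 8.74%. For all 73 the 95% confidence interval lay inside a 1.5-fold change, for 69 inside a 1.25-fold change, and the groups overlapped for every member (0.194% of all entries did not).

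These 13 members were Mrpl12, Mrpl13, Mrpl15, Mrpl19, Mrpl27, Mrpl32, Mrpl46, Mrpl51, Mrps2, Mrps22, Mrps24, Mrps26 and Mrps27. Mrpl46 differed by -0.17 ± 0.056 (SE) with 10 of 10 HF arrays below the day 0 mean, and Mrps27 by -0.29 ± 0.095 with 8 of 10. Mrps22 (-0.15 ± 0.051) and Mrps24 (-0.11 ± 0.039), which in HF day 56 ran from 9.69 through 9.76 to 9.90 after 9.78 through 9.90 to 10.001 at day 0, each had 9 of 10 arrays below. Mrpl12, a stalk protein also known to bind the mitochondrial RNA polymerase, ran from 9.96 through 10.07 to 10.29 at day 0 and from 9.79 through 9.92 to 10.20 in HF day 56, and differed by -0.14 ± 0.058. Mrpl19 differed by -0.20 ± 0.066, and by -0.096 among the arrays with S100a8 at or below 100. All of these overlapped with day 0.

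On the higher side against day 0 stood Mrpl14 (0.20 ± 0.12), Mrpl10 (0.13 ± 0.072), Mrpl3 (0.10 ± 0.075), Mrps6 (0.10 ± 0.060), Mrps34 (0.017 ± 0.066) and Mrps30 (0.010 ± 0.051), none with an unadjusted p below 0.05. Among the arrays with S100a8 at or below 100 the values of Mrpl10 (-0.018), Mrpl3 (-0.038) and Mrps34 (-0.054) were below 0. Mrps34 was also at -0.023 within the set of lower control signal. The part of neutrophil RNA in these values was not tested.

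Markers of other cell types moved with the comparisons. Of 8 measured markers of fibroblasts and tendon, 5 fell in LF day 56 against day 0 and 5 in HF day 56 against day 0. Col1a1 had differences of -0.86 and -0.79. Marker sums ran from 11144.1 to 18794 at day 0, 10053.6 to 12340.6 in LF day 56 and 8926.2 to 13322.7 in HF day 56. Over all entries 0.625% fell in LF day 56 and 0.807% in HF day 56. Of 6 measured adipocyte markers 0 passed in LF day 56 and 4 rose in HF day 56 against day 0, Lep by 2.28, while Cfd (-0.45) and Thrsp (-0.40) had lower means and did not pass, with sums from 1464.7 to 2528, from 1538.4 to 3438 and from 1079 to 4034.9. Of 7 endothelial markers 1 passed and fell in each comparison against day 0. All 7 had lower means in LF day 56 and 6 of 7 in HF day 56. On the lower side 5 and 2 had an unadjusted p below 0.05, against 5.86% and 5.71% of all entries. Between the diets at day 56, 0 markers of these lists passed, against 0.0243% of all entries. The share of all entries at an unadjusted p below 0.05 was 5.1%. At such a p, 3 of the 6 adipocyte markers were higher on the high fat diet, with Lep at 1.58. The lower ones were 2, Cfd (-0.47) and Thrsp (-0.32). All 10 neutrophil markers had higher means on the high fat diet, with a median difference of 1.08 and 0 at an unadjusted p below 0.05. Their part in the members' values was not tested. In whole muscle, fewer cells of a type and less RNA per cell cannot be told apart.

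More members differed between the technical sets than between any groups, and the same held over all entries (3811, against 4, 140 and 262 between groups). Between the set of higher and that of lower control signal, 26 of 73 members differed (limma with group in the fit), against 23.1% of all entries and 39.8% of the detected ones. Of these, 19 were higher and 7 lower, against 10.8% and 12.4% of all entries and 17.7% and 22.1% of the detected ones. The share of the 73 that differed thus lay above that of all entries and below that of the detected ones. It was above both on the higher side and below both on the lower side. Mrps7, an early binder of ribosomal RNA in the bacterial small subunit, ran from 9.17 through 9.28 to 9.45 on the 21 arrays and from 9.41 through 9.56 to 9.63 on the 9 arrays, a difference of 0.26 ± 0.037 (SE; adjusted p = 3.58e-06). Mrps18a differed by 0.24 ± 0.039 (adjusted p = 1.68e-05) and the uncertain Mrpl27-ps by 0.22 ± 0.036 (adjusted p = 2.80e-05). Mrpl14 (0.35 ± 0.084) and Mrpl50 (0.34 ± 0.062), the large subunit members widest in spread beside a pseudogene, were higher in the 9 arrays, and Mrps9 (-0.21 ± 0.053) and Mrpl39 (-0.16 ± 0.037) were lower. Since each group held 3 of the 9 arrays, taking the set as a block left every member's difference between groups as it was. Between the 17 arrays with S100a8 above 100 and the other 13, 0 members differed, against 1.17% of all entries. At an unadjusted p below 0.05 there were 5, or 6.85%, against 9.01% of all entries and 9.7% of the detected ones.

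**Figure D4:**
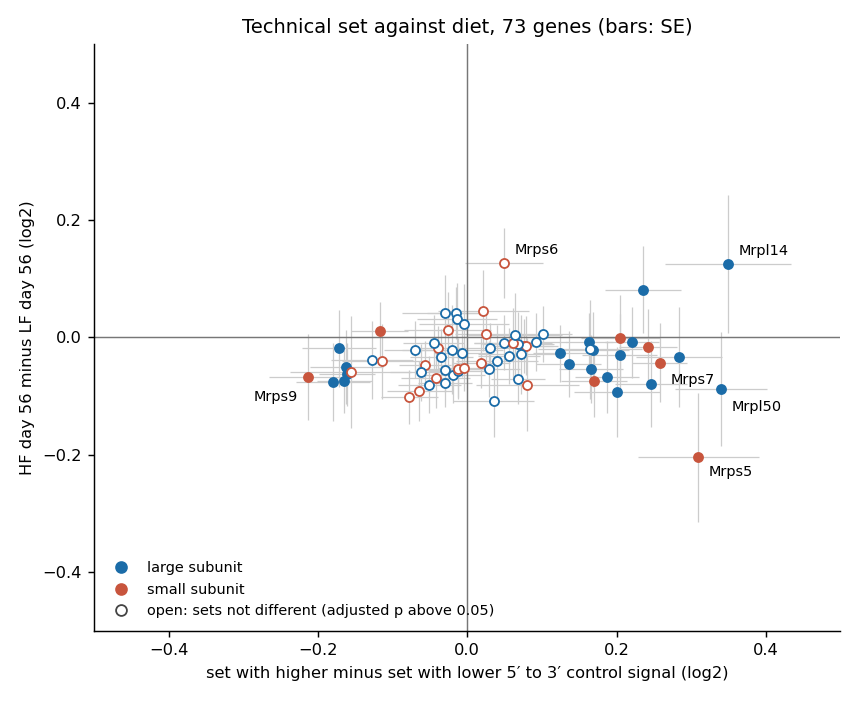
For each of the 73 members, the difference between the technical sets (x axis, log2) against the difference between HF and LF day 56 (y axis, log2), with SE bars, filled where the sets differed at an adjusted p below 0.05. The 26 filled points spread from -0.21 to 0.35 along the x axis, while the diet differences of all 73 stay between -0.20 and 0.13.

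Other proteins of the mitochondrial ribosome were followed in a list of 6 symbols that do not begin with Mrp. Of these symbols 4 were matched to an entry: Chchd1, Aurkaip1 and Dap3 of the small and Gadd45gip1 of the large subunit. In the diet comparison 0 of 4 passed in limma, and 0 had an unadjusted p below 0.05, against 5.1% of all entries. Against day 0, 1 of 4 fell and 0 rose, while 0.625% of all entries fell in LF day 56 and 0.807% in HF day 56. Chchd1 codes for a small twin-CX9C protein of the small subunit. It ran from 10.62 through 10.80 to 10.97 in LF day 0, from 10.54 through 10.58 to 10.74 in LF day 56 and from 10.43 through 10.61 to 10.67 in HF day 56. All 10 arrays of either day 56 group lay below the day 0 mean, although the lowest day 0 array overlapped with both. It fell by 0.19 ± 0.040 (SE; adjusted p = 0.0145) on the low fat diet and by 0.21 ± 0.040 (adjusted p = 0.00322) on the high fat diet, and the diets differed by -0.021 ± 0.040. The 2 falls share the day 0 arrays. Within the technical sets the LF difference was -0.22 and -0.11 and the HF difference -0.20 and -0.21. Arrays with S100a8 at or below 100 numbered 3 at LF day 0, 6 at LF day 56 and 4 at HF day 56. Among these arrays the differences were -0.17 (adjusted p = 0.336) and -0.19 (adjusted p = 0.568) and passed in neither. They also did not pass within the set of higher control signal (adjusted p = 0.782 and 0.590). In each comparison the fall passed in 10 of 12 other settings and 20 of 20 fits with 1 array left out. Dap3, a GTP-binding protein of the small subunit, had differences of 0.0016 and -0.071 from day 0, and Aurkaip1 of -0.025 and -0.045.

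Translation factors of mitochondria, with genes listed beside them (13 measured), had 0 members past the threshold in the diet comparison. At an unadjusted p below 0.05 there were 2 (15.4%), against 5.1% of all entries. The list had a median of -0.078 with 11 of 13 lower. Tsfm, an elongation factor, was lower in HF than in LF day 56 by a difference of -0.27 ± 0.11 (SE; adjusted p = 0.836), and 10 of 10 HF arrays lay below the LF mean. Against day 0, 1 of 13 rose in each comparison, while 0.225% of all entries rose in LF day 56 and 0.783% in HF day 56. This was Mss51, a mitochondrial protein that is abundant in muscle. It is counted here by the list, and a part of it in translation was not tested. Mss51 ran from 9.16 through 9.57 to 10.51 in LF day 0, from 10.09 through 10.24 to 11.62 in LF day 56 and from 9.99 through 10.30 to 10.58 in HF day 56. It rose by 0.70 ± 0.16 (adjusted p = 0.0306) and by 0.62 ± 0.16 (adjusted p = 0.0459), with 10 of 10 arrays above the day 0 mean each time and overlapping ranges. The rise passed in 7 of 12 other settings and 15 of 20 fits with 1 array left out in LF day 56, and in 5 of 12 and 3 of 20 in HF day 56. Among the arrays with S100a8 at or below 100 the differences were 1.0 (adjusted p = 0.191) and 0.95 (adjusted p = 0.396).

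Of 20 aminoacyl-tRNA synthetases and amidotransferase genes of mitochondria, which load amino acids onto the transfer RNAs, 0 passed in the diet comparison. At an unadjusted p below 0.05 there was 1 (5%), against 5.1% of all entries. The list had a median of -0.063 with 18 of 20 lower, but some of its genes never exceeded an intensity of 20 on any array. Against day 0 the share of all entries past the threshold was 0.85% in LF day 56 and 1.59% in HF day 56. Of the 20 listed genes only Hars2, the histidyl enzyme, passed there. It fell in HF day 56 by 0.25 ± 0.065 (SE; adjusted p = 0.0408), but it lay above an intensity of 20 on 6 of 30 arrays, near background, and passed in 4 of 12 other settings and in 8 of 20 fits with 1 array left out.

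In the list of 27 measured assembly and processing factors of the mitochondrial ribosome, 0 passed in any of the 3 comparisons. Unadjusted p values below 0.05 numbered 4, 1 and 3 (14.8%, 3.7% and 11.1%). The shares over all entries were 5.1%, 10.1% and 11.0%, and over the detected ones 5.03%, 13.9% and 15.9%. The diet median of the list was -0.054, with 17 of 27 lower. Tfb1m, which methylates the RNA of the small subunit, had the smallest p in the diet comparison (-0.23 ± 0.087, SE; adjusted p = 0.823), with 10 of 10 HF arrays below the LF mean, and Gtpbp10, a GTPase of large subunit assembly, in the LF time comparison (-0.25 ± 0.10; adjusted p = 0.351). Of 18 genes of mitochondrial transcription and RNA processing and of 9 regulators of nuclear genes for mitochondrial proteins, 0 passed in any comparison. At an unadjusted p below 0.05 there were 0, 0 and 2 of the former and 0, 2 and 3 of the latter in the 3 comparisons. The 2 of the former were 11.1%, and the 2 and 3 of the latter 22.2% and 33.3%, beside the shares over all entries given above. The coactivators Ppargc1a (-0.23 ± 0.17) and Ppargc1b (-0.19 ± 0.10) had lower means in HF than in LF day 56. Ppargc1b (0.29 ± 0.10) and Pprc1 (0.22 ± 0.074; 10 of 10 arrays above the day 0 mean) had higher means in LF day 56 than at day 0.

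The cytosolic ribosome shares no protein gene with the mitochondrial one. Its genes were taken by symbol, which gave 35 entries, and 0 of these passed in any comparison. Unadjusted p values below 0.05 numbered 2, 6 and 7 (5.71%, 17.1% and 20%), against 5.1%, 10.1% and 11.0% of all entries. Among the detected entries the shares were 5.03%, 13.9% and 15.9%. The 35 include 7 S6 kinase genes, 1 gene for a binding protein and 2 pseudogenes. Without these, a choice made by name after the values were seen, 25 genes for ribosomal proteins and their paralogs remain. Some of these 25 never exceeded an intensity of 20 on any array. In the diet comparison the median of the 25 was -0.046 with 20 of 25 lower, beside -0.033 and 60 of 73 for the mitochondrial members. Against day 0 it was 0.0032 in LF day 56 and -0.012 in HF day 56, beside -0.013 and -0.053 over all 73 mitochondrial members. No test of these medians against each other was made. Rpl4 had the smallest p in LF day 56 against day 0 (0.11 ± 0.032, SE; adjusted p = 0.102; 10 of 10 arrays above the day 0 mean).

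The promoter features were set beside the differences as a description. The 17 members with CCGGAAG had a median diet difference of -0.020 and the 46 without it -0.046. Against day 0 they had -0.058 and -0.0058 in LF day 56, and -0.081 (15 of 17 lower) and -0.047 (37 of 46 lower) in HF day 56. The 10 members with the looser NRF1 motif had a median diet difference of -0.057, with 9 of 10 lower, and the 53 without it -0.021. The 21 members with a close opposite start had -0.041 and the other 42 had -0.024. No test of these medians against each other was made.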

How the data were processed

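RNA of quadriceps muscle from 30 mice was measured on Affymetrix arrays. The deposited table holds 1 linear intensity per gene and array, made with GCRMA per the submitters' processing notes, with no version; the array build is not given in the sources used here. Intensities came in steps of 0.1, with array medians from 8.9 to 9.4. Of 16539 entries, 64 controls were left out. Symbols came from the Entrez number through RefSeq, otherwise from the platform annotation. The log2 of the intensity (pseudocount 0) entered a linear model in limma 3.58.1 (R 4.3.3; eBayes, group only, all 30 arrays, two-sided, Benjamini-Hochberg over 16475 entries, threshold 0.05, 27 residual and 3.97 prior degrees of freedom). SE and 95% intervals are from that fit; SD is between arrays. An intensity of 20 marked entries near background. The number of arrays limits the precision. The fit was tested on simulated data.

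Named members were, per comparison and subunit, the 3 of smallest p higher and lower, the 3 of widest spread and the 3 that differ most between technical sets; of other lists, genes past the threshold and those of smallest p, of which 1 is not reported here. Members, lists and technical sets were chosen with earlier results of these data known. Replicate numbers recur in the groups, but each mouse has its own number in the labels, so arrays were not paired. Alternatives were the fit, scaling, pseudocount 16, a filter, the replicate block, technical sets, arrays with high S100a8, a slow fibre covariate and leaving out each array. Tables were handled with Python 3.11.15, pandas 2.3.3 and scipy 1.17.1, and figures drawn with matplotlib 3.10.9.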

Additional observations from a re-analysis of the deposited data

Results flagged for a closer look

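Among 102 sets of 10 arrays that were checked (the named genes and the 2 subunit means in each group), 7 held an array whose gap to its nearest neighbour exceeded Dixon's 95% limit for 10 values; chance gives about 1 in 20. Mrps27 had one low array in LF day 0, at 6.324 (log2), and another in LF day 56, at 5.991. The small subunit mean had a low array in LF day 56, at 8.045, which was the same array of replicate 8 as the low one of Mrps27, and a high array in HF day 56, at 8.22 (replicate 2). Mrpl20 had a high array in LF day 56, at 10.26, and Mrps30 a high array in HF day 56, at 8.042. Mss51 had a high array in LF day 56, at 11.62, without which its rise over day 0 was 0.56 in place of 0.70.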

How the results depend on the processing

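No member passed in any of 32 alternative limma fits per comparison (12 settings and 20 fits with 1 array left out); the smallest adjusted p of any member was 0.734 for HF against LF day 56, 0.104 for LF day 56 against day 0 and 0.051 for HF day 56 against day 0. Calls over all entries did move. For HF against LF day 56, 4 became 0 with only the groups compared, within the set of lower control signal, within that of higher signal and without the arrays with S100a8 above 100. The count was 1 with the replicate block, 7 with pseudocount 16, 8 with trend and robust priors, 8 with the filter on low values and 12 with the slow fibre covariate, and 2 to 15 with 1 array left out. For LF day 56 against day 0, 140 became 214 with the technical set as a block, 47 and 11 within the sets, 13 without the high S100a8 arrays, and 102 to 155 with 1 array left out. For HF day 56 against day 0, 262 became 384 with the technical set as a block, and 134 and 0 within the sets. Calls numbered 6 without the high S100a8 arrays and 214 to 271 with 1 left out. The smaller fits hold fewer arrays; beyond that the cause was not tested.

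The subunit medians for HF against LF day 56 stayed below 0 in all 32 fits, from -0.056 to -0.022 for the large and from -0.056 to -0.020 for the small subunit. For LF day 56 against day 0 the large subunit median was above 0 in 3 settings, up to 0.0096, and the small in 1, at 0.00057. Single members turned sign, with the cause not tested. Without the high S100a8 arrays, HF minus LF day 56 was -0.082 for Mrpl3, -0.070 for Mrpl14, -0.037 for Mrpl28 and -0.045 for Mrps11; LF day 56 minus day 0 was -0.063 for Mrps15 and 0.011 for Mrps11; and HF day 56 minus day 0 was -0.018 for Mrpl10, -0.038 for Mrpl3 and -0.054 for Mrps34. Within the set of higher control signal the diet difference was -0.11 for Mrps11 and -0.018 for Mrps31, and within the lower set Mrps34 against day 0 was -0.023. With 1 array left out Mrps31 ranged from -0.0098 to 0.038 (diet), and, for HF day 56 against day 0, Mrps34 from -0.0098 to 0.048 and Mrps30 from -0.020 to 0.036.

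The pairing by replicate number was checked by the correlation of deviations from the group means. Same-numbered arrays correlated at -0.54 to 0.57, and 1, 0 and 2 of 10 arrays in the 3 comparisons correlated best with their own number, so the numbers did not pair the arrays. With the replicate block 0 members passed, and Mss51 and Hars2 passed in no comparison. Signal near background limits Mrpl41, Mrps25, Mrps5 and Hars2. It also limits the list medians. The synthetase, translation, assembly, transcription, regulator and cytosolic ribosome lists each hold at least 1 entry that never exceeded an intensity of 20.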
